A study of Mus musculus with 6 samples.

Results

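The genes described here encode 8 protein kinases of the mitogen-activated protein (MAP) kinase cascades: *Araf* and *Braf* (Raf kinases), *Map2k1* and *Map2k2* (MEK1 and MEK2), *Mapk3* (the kinase ERK1), *Mapk8* and *Mapk9* (the kinases JNK1 and JNK2) and *Mapk14* (the kinase p38α). They were taken from the table of gene counts by gene identifier, and 8 of 8 were found among its 47069 genes. The table holds bulk RNA-seq of LβT2 cells, an immortalized mouse gonadotrope line from the anterior pituitary, at passage 14. All 6 libraries came from cells given 2 nM gonadotropin-releasing hormone (GnRH) for 40 min, so no vehicle-treated library was compared and the effect of GnRH on these genes was not analysed here. In 3 libraries the cells were lysed fresh. In the other 3 the cells were first stored cold (4°C) in RNA-Best, a proprietary stabilizing buffer, for 4 days or more. The question of the comparison was whether storage in RNA-Best changes the measured transcript levels.

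A Raf kinase phosphorylates MEK, MEK phosphorylates ERK, and active ERK enters the nucleus and drives immediate-early genes. JNK and p38 kinases lie at the ends of parallel cascades that respond to stress and cytokines as well as to receptors. In gonadotropes the GnRH receptor couples mainly to the Gq protein and activates ERK, JNK and p38 through protein kinase C and calcium, and ERK and JNK signalling contributes to expression of the gonadotropin subunits. These kinases are switched on by phosphorylation, so the level of their mRNA is not a measure of their activity.

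The MAP kinases differ at the site through which they are switched on, a threonine and a tyrosine with a single residue between them in the activation loop. The coding bases of this site are shown because they separate the ERK, JNK and p38 classes that the results compare. They were read 5′ to 3′ on the coding strand from GENCODE transcripts on GRCm38, and the 9 capitals mark the threonine codon, the codon between and the tyrosine codon. The middle codon stands for glutamate in ERK, proline in JNK and glycine in p38.
Mapk3: ggctttctgACGGAGTATgtggccaca
Mapk8: tttatgatgACGCCTTATgtggtgact
Mapk9: tttatgatgACTCCCTATgtggtaact
Mapk14: gatgagatgACAGGCTACgtggctacc
These 27 bases lie in exon 4 of *Mapk3* at chr7:126763449-126763475 on the plus strand. In *Mapk8* they lie in exon 6 at chr14:33392994-33393020 on the minus strand, in *Mapk9* in exon 6 at chr11:49872821-49872847 on the plus strand, and in *Mapk14* in exon 7 at chr17:28728390-28728416 on the plus strand.

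Paralogs are close enough in sequence that shared reads had to be considered. The longest coding sequences of *Map2k1* and *Map2k2* were identical at 78.4% of aligned bases, those of *Mapk8* and *Mapk9* at 75.5% and those of *Araf* and *Braf* at 67.8%. The longest run of bases common to *Map2k1* and *Map2k2* is shown because it was the longest in any of these 3 pairs, and its 56 bases were fewer than those of a sequencing read.
Map2k1 and Map2k2: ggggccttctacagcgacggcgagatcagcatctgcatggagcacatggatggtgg
The longest common run was 23 bases for *Mapk8* and *Mapk9* and 17 for *Araf* and *Braf*. No window of the length of a read in the annotated transcripts of 1 of these genes recurred in those of another. *Map2k1*, *Map2k2*, *Mapk3*, *Mapk8*, *Mapk9* and *Mapk14* shared 0% of their windows with transcripts of any other gene. *Araf* shared 0.203% of its windows with a retained-intron transcript of *Tulp4*, and *Braf* shared 0.324% with *Ndufb2*, which overlaps it on the opposite strand. Whether the counting used strand is not given in the sources used here, so reads from that overlap cannot be assigned. Parts of counts occurred in 2 libraries for *Araf* and in 3 for *Mapk3*, and both values are uncertain to that extent. The other 6 genes had whole counts in every library.

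The libraries held between 4909418 and 47438746 counts, with the 3 RNA-Best libraries the shallowest. Replicates of a group differed by 1.08 to 1.95 chi-square units per gene, where sampling noise alone gives about 1, and the sources do not say whether they came from separate cultures, so p-values measure the spread between libraries, which may be technical. Of 5 gonadotrope markers, *Lhb*, *Cga*, *Gnrhr* and *Nr5a1* were detected in each library, and *Fshb* had 0 counts, which allows at most 0.0632 to 0.611 CPM (a count scaled to the library total), depending on the depth; such limits cover counting error alone. The 5 markers summed to between 2379 and 2404 CPM in fresh and between 1971 and 2014 CPM in RNA-Best libraries. Most of this sum was *Cga*, at 1792 to 1831 CPM in fresh and 1409.7 to 1448 CPM in RNA-Best libraries, while *Gnrhr* was at 109 to 125 CPM and 159 to 173 CPM. Of 6 markers of other pituitary cells, *Prl* and *Pou1f1* were at 0, and the 6 summed to between 0.789 and 1.11 CPM in fresh and between 1.42 and 2.28 CPM in RNA-Best libraries, most of it from *Tshb*. Of 5 markers of blood, endothelial and stem cells, *Ptprc* and *Sox2* were at 0, and the sum was 41.9 to 43.1 CPM in fresh and 37.8 to 40.7 CPM in RNA-Best libraries, nearly all of it *Pecam1*. The part of these marker levels in the results below was not tested.

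Between fresh and RNA-Best libraries, the 8 kinase genes moved by small amounts and in different directions. *Braf*, *Mapk8*, *Mapk9* and *Mapk14* were higher in RNA-Best and *Map2k1*, *Map2k2* and *Mapk3* were lower, while *Araf* did not pass the test. Without an offset for gene length, the largest difference was that of *Braf*, at 1.35-fold, and the other 7 lay between 0.836-fold and 1.15-fold. The comparison used edgeR's quasi-likelihood test with Benjamini-Hochberg adjustment over the 14736 genes past a filter on low counts, and 8 of the 8 kinase genes passed that filter. At a false discovery rate of 5%, 7 of the 8 were called, against 50.8% of all genes tested. By direction, 4 were higher in RNA-Best, where the background was 26.0%, and 3 were lower, where it was 24.8%. In the same 7 genes the CPM of the groups did not overlap, against 57.5% of all genes tested. The median log2 fold change was 0.05 over the 8 genes and -0.01 over all genes tested, and the median absolute log2 fold change was 0.18 and 0.19. In bulk RNA, fewer cells with a transcript and less of it per cell cannot be told apart. When a fold of more than 1.2 was required (edgeR's glmTreat), *Braf* alone of the 8 passed, against 11.5% of all genes tested. With an offset for gene length, described below, 0 were called higher and 3 lower, or 0 and 5 in its least-squares form. The shares of all genes were 17.0% higher and 21.3% lower, or 14.1% and 27.9%. The largest difference was then that of *Map2k2*, at a log2 fold change of -0.34, or -0.36 by least squares.

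**Figure D1:**
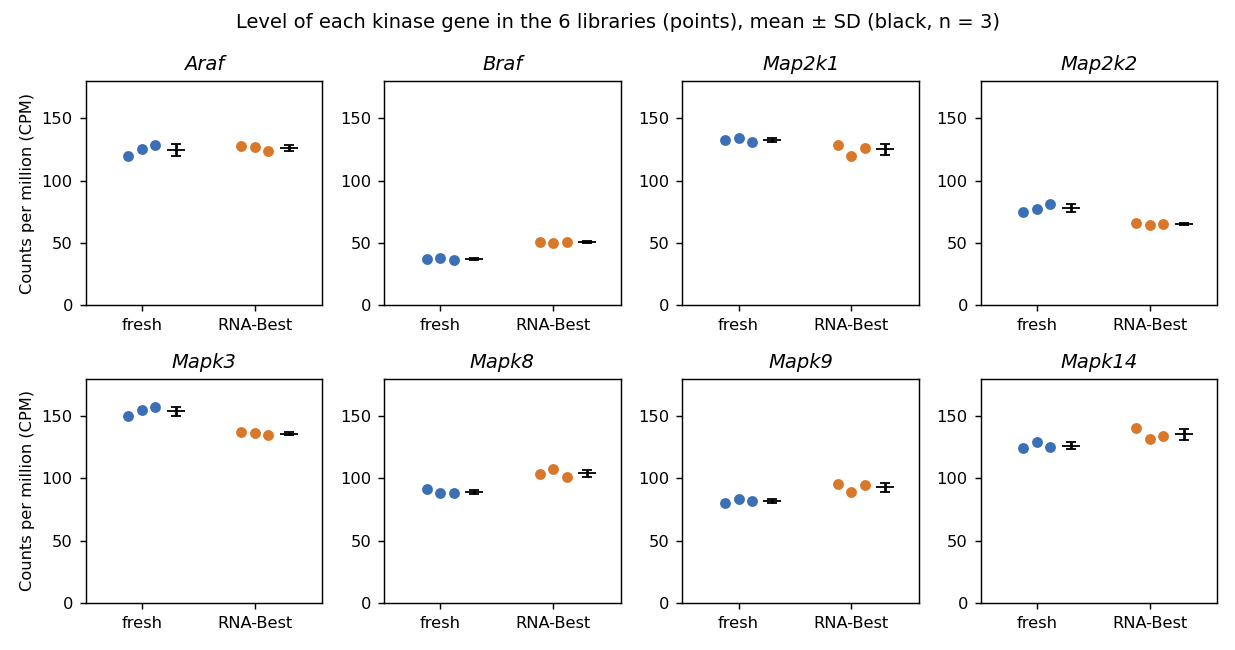
Level of the 8 kinase genes in CPM (y axis, from 0), with 1 point for each of the 3 fresh (blue) and 3 RNA-Best (orange) libraries and the mean ± SD beside them. The groups overlap for *Araf* and are apart for the other 7 genes, with the widest gap relative to the level in *Braf*.

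*Braf* encodes the Raf kinase with the highest basal activity and lies on chromosome 6 from 39603237 to 39725463 on the minus strand. Its level was 37.3, 37.5 and 36.1 CPM in the fresh libraries and 51.1, 50.1 and 51.0 CPM in the RNA-Best libraries. Every RNA-Best library stood above every fresh library, and the values within a group lay close together. Fresh libraries averaged 37.0 ± 0.751 CPM and RNA-Best libraries 50.7 ± 0.535 CPM (SD, n = 3 each). *Braf* thus had a log2 fold change of 0.44 (standard error 0.05, 95% interval 0.34 to 0.54, adjusted p = 2.29e-09 from edgeR). *Braf* was also the longest of the 8 genes, with 13862 bases of merged exons and 9728 in its longest annotated transcript. An offset for gene length used merged exons, and none on the longest annotated transcript was fitted. The offset was fitted by a robust loess, a form chosen after a least-squares fit of the same offset had been seen, so both are given. With it the log2 fold change was 0.09 (edgeR, adjusted p = 0.148), and by least squares 0.07 (edgeR, adjusted p = 0.219). Over the 20 alternatives the adjusted p of *Braf* ran from 3.70e-12 to 0.274.

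*Araf*, a Raf kinase of low basal activity, lies on the X chromosome from 20797814 to 20860519 on the plus strand. It had 119.5, 126 and 129 CPM in fresh and 128, 127 and 123 CPM in RNA-Best libraries. The groups overlapped, with the lowest and the highest value both in fresh libraries. Their log2 difference was 0.01 (standard error 0.04, 95% interval -0.07 to 0.08, adjusted p = 0.903 from edgeR), an interval that leaves room for 0.954-fold to 1.06-fold. Its sign depended on the setting. With the length offset *Araf* passed at -0.12, or -0.14 by least squares (edgeR, adjusted p = 0.00857 and 0.00274). That offset used its 6541 bases of merged exons, while its longest annotated transcript has 2854, a length not tried. With the GC offset *Araf* was at -0.08 and did not pass, or at -0.11 and passed by least squares (edgeR, adjusted p = 0.0633 and 0.0114). Over the alternatives other than glmTreat the adjusted p ran from 0.00274 to 0.997.

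MEK1 and MEK2 are dual-specificity kinases that phosphorylate both the threonine and the tyrosine of ERK, and both of their genes were lower in RNA-Best. *Map2k2* lies on chromosome 10 from 81105915 to 81133975 on the plus strand. It had 75, 77.4 and 81.1 CPM in fresh and 66.1, 64.8 and 64.8 CPM in RNA-Best libraries. The lowest fresh library stood well above the highest RNA-Best library. The means were 77.8 ± 3.07 and 65.2 ± 0.754 CPM (SD, n = 3 each), which gave a log2 fold change of -0.26 (standard error 0.04, 95% interval -0.35 to -0.17, adjusted p = 6.01e-06 from edgeR). With the length offset, fitted on its 5663 bases of merged exons (longest transcript 2405), its difference was larger, at -0.34, and -0.36 by least squares. With the GC offset it was -0.14 (edgeR, adjusted p = 0.00716), and after thinning -0.17 (edgeR, adjusted p = 0.0338), both smaller by more than 1.5 times. The call of *Map2k2* was lost in 1 of the 20 alternatives, glmTreat, whose adjusted p of 0.860 was the highest, the lowest being 3.56e-10.

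*Map2k1* lies on chromosome 9 from 64185770 to 64253631 on the minus strand. Its level was 133, 134 and 131 CPM in fresh and 129, 120.2 and 126 CPM in RNA-Best libraries. The groups did not overlap, but the lowest fresh and the highest RNA-Best library were close. This was a log2 fold change of -0.09 (standard error 0.03, 95% interval -0.16 to -0.02, adjusted p = 0.0251 from edgeR). The call did not hold without fresh replicate 2, RNA-Best replicate 2 or RNA-Best replicate 3 (edgeR, adjusted p = 0.0654, 0.123 and 0.0838). It was also lost with DESeq2's Wald test, thinning or the robust length offset. The adjusted p ran from 0.00113 to 0.730 over the alternatives other than glmTreat. With single libraries left out the log2 fold change ran from -0.11 to -0.07, and with the Wald test it was -0.09. After thinning the libraries to equal depth the log2 fold change was -0.02, and with the robust length offset -0.04. With the least-squares length offset it was -0.09 and passed (edgeR, adjusted p = 0.0431), and with the replicate block added to that offset it was -0.08 and did not (edgeR, adjusted p = 0.0616).

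*Mapk3* lies on chromosome 7 from 126759601 to 126765819 on the plus strand and had the shortest merged exons of the 8, at 2257 bases. It had 149.9, 155 and 157 CPM in fresh and 137, 136 and 134 CPM in RNA-Best libraries, and no RNA-Best library reached the lowest fresh one. The means were 154 ± 3.66 and 136 ± 1.35 CPM (SD, n = 3 each). On the log2 scale the fold change was -0.19 (standard error 0.03, 95% interval -0.26 to -0.12, adjusted p = 1.33e-05 from edgeR). The length offset decided this call by its form. It was -0.07 and not called with the robust fit (edgeR, adjusted p = 0.0983), and -0.13 and called with least squares (edgeR, adjusted p = 0.00173). With the replicate block added to the length offset it was -0.07 and not called, or -0.13 and called by least squares (edgeR, adjusted p = 0.120 and 0.00363). With the GC offset it was -0.10. The adjusted p ran from 1.26e-09 to 0.120 over the alternatives other than glmTreat, which asks for more than 1.2-fold.

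The JNK genes *Mapk8* and *Mapk9* were both higher in RNA-Best, by similar factors. *Mapk8* lies on chromosome 14 from 33377898 to 33447158 on the minus strand. It had 91.2, 88.4 and 88.3 CPM in fresh and 104, 107 and 101.3 CPM in RNA-Best libraries, with a gap between the groups wider than the spread within either. *Mapk8* had a log2 fold change of 0.20 (standard error 0.04, 95% interval 0.12 to 0.27, adjusted p = 4.74e-05 from edgeR). Its direction turned with the length offset, to -0.10, or -0.11 by least squares (edgeR, adjusted p = 0.0302 and 0.0129). The call was lost with the GC offset, at 0.05 (edgeR, adjusted p = 0.312), and over the alternatives other than glmTreat the adjusted p ran from 3.83e-05 to 0.816. *Mapk8* had 11444 bases of merged exons, on which the offset was fitted, but 5756 in its longest annotated transcript. Whether the turn holds with that length was not tested.

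*Mapk9* lies on chromosome 11 from 49846751 to 49886421 on the plus strand. It had 80.1, 83.8 and 81.9 CPM in fresh and 95.5, 88.8 and 94.6 CPM in RNA-Best libraries. The RNA-Best libraries all stood higher, with replicate 2 the nearest to the fresh range. For *Mapk9* the log2 fold change was 0.18 (standard error 0.04, 95% interval 0.10 to 0.26, adjusted p = 0.000287 from edgeR). It was 0.04 with the length offset, which did not pass (edgeR, adjusted p = 0.431). With the GC offset it was 0.09 and passed, but 0.06 by least squares and did not (edgeR, adjusted p = 0.0470 and 0.181). Over the alternatives other than glmTreat the adjusted p ran from 0.000241 to 0.731.

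*Mapk14*, whose p38 kinase is activated by many stresses, lies on chromosome 17 from 28691329 to 28748406 on the plus strand. It had 125, 129 and 125 CPM in fresh and 140.4, 132 and 134 CPM in RNA-Best libraries. The groups were apart, but by less than the range within RNA-Best. For *Mapk14* the log2 fold change was 0.09 (standard error 0.03, 95% interval 0.02 to 0.16, adjusted p = 0.0328 from edgeR). The call did not hold without fresh replicate 1, fresh replicate 3, RNA-Best replicate 1 or RNA-Best replicate 3 (edgeR, adjusted p = 0.115, 0.0526, 0.210 and 0.0540). It also did not hold with DESeq2's Wald test, no filter or the length offset of either form. The log2 fold changes were 0.09 with the Wald test, 0.04 with no filter, 0.08 with the robust and 0.05 with the least-squares length offset. With single libraries left out they ran from 0.06 to 0.11, and after thinning the value was 0.16. The adjusted p ran from 0.00475 to 0.493 over the alternatives other than glmTreat.

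The counts behind these values differed among the genes. *Braf* had the fewest counts, from 246 to 1780 in a library, and *Mapk3* the most, up to 7342. Counting alone would give *Braf* a coefficient of variation of 3.10% in the fresh and 5.05% in the RNA-Best group, while the values seen were 2.03% and 1.06%. For *Mapk3* the values seen were 2.38% and 0.990%, against 1.52% and 3.08% from counting. Over the 8 genes, the observed coefficient of variation ranged from 1.02% to 3.94% in fresh and from 0.990% to 3.91% in RNA-Best libraries. In the fresh group *Araf* had 3.85% against 1.68% from counting, and *Map2k2* 3.94% against 2.13%. In the RNA-Best group both were below counting, at 1.92% against 3.20% and 1.16% against 4.45%. A spread from 3 libraries is a loose estimate, and it was not tested against counting error.

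Gene length moved with the differences. Across genes, the median log2 fold change was -0.13 for the 2081 genes of 2 to 3 kb, -0.06 for the 1989 genes of 3 to 4 kb, and close to 0 for the 1711 genes of 4 to 5 kb. It was 0.13 for the 4252 genes of 5 to 10 kb and 0.32 for the 1244 genes over 10 kb. *Mapk3*, *Map2k1*, *Mapk9*, *Mapk8* and *Braf* had the same sign as the median of their length bin, while *Araf* did not pass and that median was just below 0 for *Mapk14*, which was above 0. *Map2k2* had the opposite sign to its bin, with 5663 bases of merged exons and a log2 fold change of -0.26 where its bin had a median of 0.13. The bins and the length offset used merged exons. The longest annotated transcript of *Map2k2* has 2405 bases, and the 2 to 3 kb bin had a median of -0.13, the sign of *Map2k2*. How the genes would be placed by transcript length was not tested. *Map2k2* also had the highest GC content of the 8, at 60.4%, and *Mapk8* the lowest, at 40.1%. With the length offset, 0 of the 8 genes were higher and 3 were lower in RNA-Best (*Araf*, *Map2k2* and *Mapk8*), against a background of 38.3% of all genes called, 17.0% higher and 21.3% lower. By least squares 0 were higher and 5 lower, *Map2k1* and *Mapk3* as well, against a background of 42.0%, 14.1% higher and 27.9% lower. Over all genes tested, 3828 were higher and 3651 lower without an offset, 2503 and 3146 with the robust and 2075 and 4118 with the least-squares length offset.

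**Figure D2:**
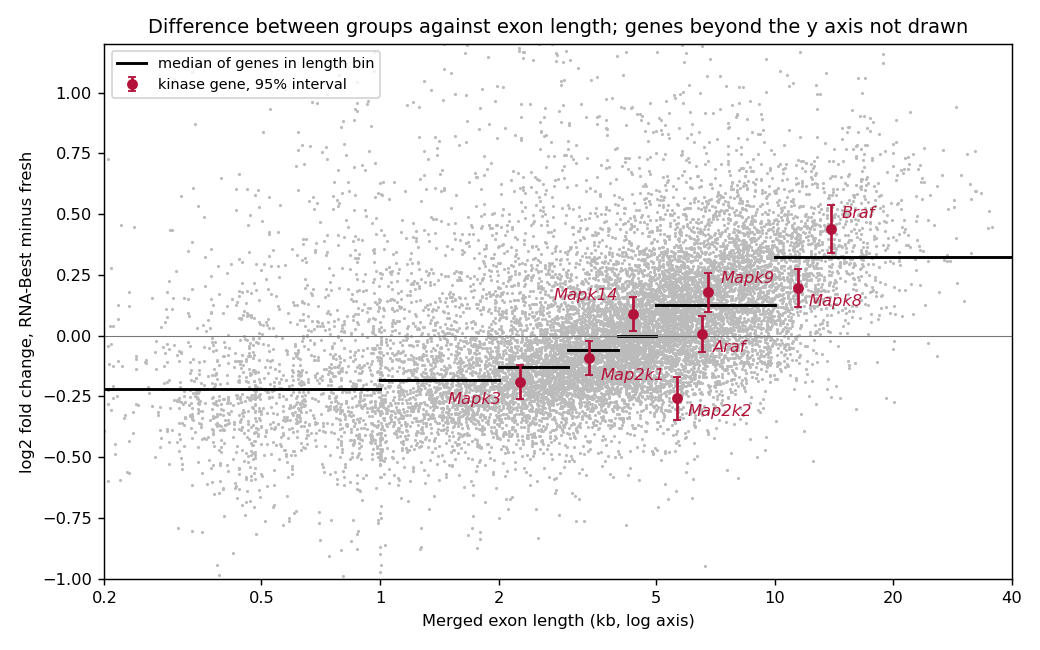
Log2 fold change (RNA-Best minus fresh, y axis) against merged exon length (x axis, log scale) for the genes tested (grey, those beyond the y axis not drawn), with the median of each length bin (black lines) and the 8 kinase genes with 95% intervals (red). *Braf* and *Mapk8* lie among the longest genes, *Mapk3* among the shorter ones, and *Map2k2* lies below the median of genes of its merged exon length.

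**Figure D3:**
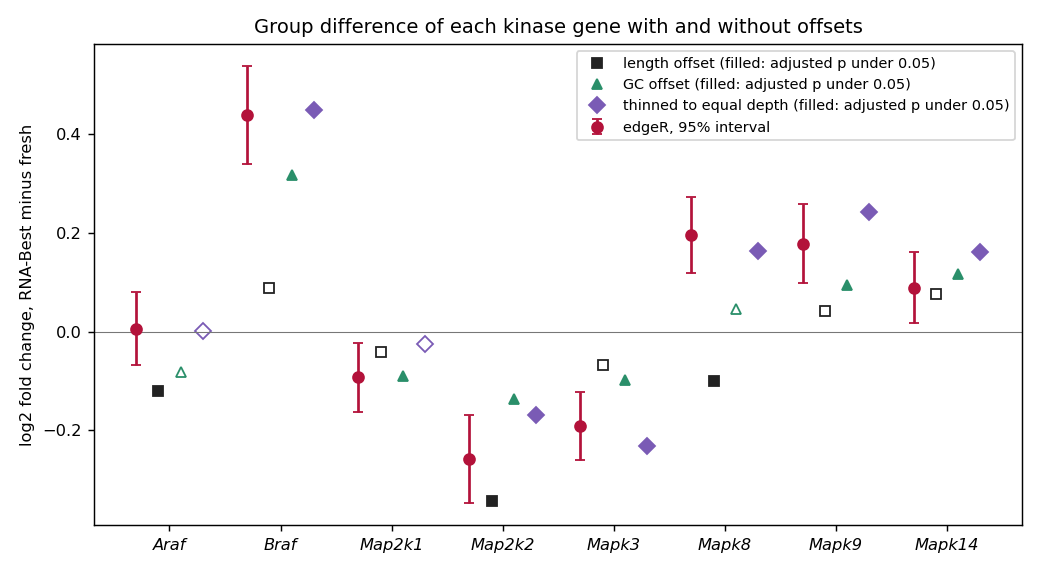
Log2 fold change of the 8 genes (y axis) from edgeR with its 95% interval, with an offset for gene length, with an offset for GC content (both robust) and after thinning to equal depth; open symbols did not pass an adjusted p of 0.05. The length offset moved *Braf* from 0.44 to 0.09 and *Mapk8* from 0.20 to -0.10, and *Map2k2* stayed below 0 in each.

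A ratio of paralogs within a library does not depend on how libraries are scaled, so 3 such ratios were compared. In 2 of the 3 the groups did not overlap, which gives the smallest p that 3 libraries against 3 allow (exact permutation test, two-sided, p = 0.1, or 0.15 adjusted over the 3 ratios). That permutation test cannot reach a p of 0.05 with 3 libraries a group. The genes of a pair differ in length, so the difference of their fitted log2 fold changes with the length offset is given too, with no test. The counts of *Araf* exceeded those of *Braf* 3.37-fold in fresh and 2.49-fold in RNA-Best libraries. The log2 ratio was 1.68, 1.74 and 1.84 in fresh against 1.33, 1.34 and 1.27 in RNA-Best libraries, a difference of -0.44, or -0.21 with the length offset of either form. The log2 ratio of *Map2k1* to *Map2k2* was 0.82, 0.79 and 0.69 in fresh against 0.96, 0.89 and 0.96 in RNA-Best libraries, a difference of 0.17, or 0.30 with the robust and 0.28 with the least-squares length offset. Every RNA-Best library had a higher ratio than every fresh one.

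In contrast, the ratio of *Mapk8* to *Mapk9* overlapped between groups, at 0.19, 0.08 and 0.11 in fresh against 0.12, 0.27 and 0.10 in RNA-Best libraries on the log2 scale. The difference was 0.04 (exact permutation test, two-sided, p = 0.6, adjusted p = 0.6), and RNA-Best replicate 2 decided its sign, since without it the difference was -0.02. It was also below 0 with the length offset, at -0.14 in either form.

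**Figure D4:**
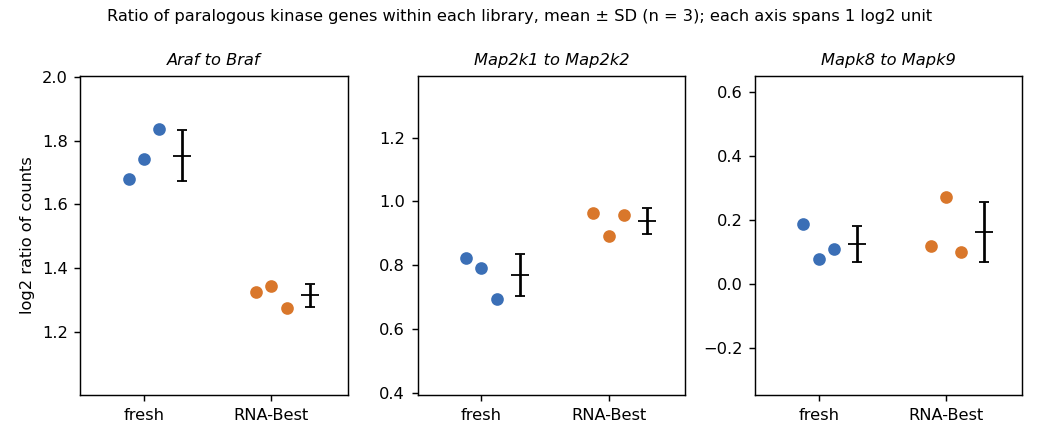
Log2 ratio of counts of 3 pairs of paralogous kinase genes in each of the 3 fresh (blue) and 3 RNA-Best (orange) libraries, with mean ± SD; each y axis spans 1 log2 unit. The groups are apart for *Araf* to *Braf* and *Map2k1* to *Map2k2* and overlap for *Mapk8* to *Mapk9*.

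Levels were compared between genes as CPM per kilobase of merged exons. In fresh libraries *Mapk3* was highest at 68.2 ± 1.62 CPM per kb (SD, n = 3), followed by *Map2k1* at 39.1 ± 0.398 and *Mapk14* at 28.9 ± 0.588. *Araf* had 19.1 ± 0.734 CPM per kb, *Map2k2* 13.7 ± 0.542, *Mapk9* 12.1 ± 0.272 and *Mapk8* 7.80 ± 0.140. *Braf* was lowest at 2.67 ± 0.0542 CPM per kb. In this order no neighbours overlapped in their libraries within a group. In RNA-Best libraries the order was the same except that *Mapk9*, at 13.7 ± 0.536 CPM per kb, stood above *Map2k2*, at 11.5 ± 0.133. When the longest annotated transcript was used as the length in place of the merged exons, *Araf* came above *Mapk14* in fresh libraries, at 43.7 against 35.2 CPM per kb, and *Map2k2* stayed above *Mapk9* in RNA-Best libraries, at 27.1 against 19.9 CPM per kb. The transcripts in use in these cells are not known from gene counts, so the order rests on the annotation. Among all genes tested, 93.8% had a lower level per kb than *Mapk3* and 31.3% a lower one than *Braf*.

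On this scale, a share of the summed level was computed in the MEK1 and MEK2, JNK and p38 families, and shares are given as mean ± SD of 3 libraries. *Map2k1* accounted for 74.0% ± 0.893 of the MEK1 and MEK2 transcripts in fresh against 76.2% ± 0.512 in RNA-Best libraries.

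The JNK and p38 families were more evenly divided. *Mapk9* made up 50.3% ± 0.884 of the JNK transcripts in fresh against 50.8% ± 1.58 in RNA-Best libraries, and *Mapk8* 32.5% ± 0.740 and 33.7% ± 1.16, with overlap between groups for both. *Mapk10*, the gene of JNK3, supplied the rest. *Mapk14* made up 32.1% ± 0.955 of the transcripts of the 4 p38 genes in fresh against 35.4% ± 1.84 in RNA-Best libraries. The differences of these shares, RNA-Best minus fresh, kept their sign with the longest transcript as length and with each library left out, though those of the JNK genes rested on single libraries. The difference for *Mapk8*, 1.22 percentage points, was 0.558 without RNA-Best replicate 2. The difference for *Mapk9*, 0.524 percentage points, was 0.0137 without fresh replicate 1. Leaving out replicate 1, 2 or 3 of the RNA-Best group made it 0.0918, 1.44 and 0.0424. Over the 5 genes with a share (*Map2k1*, *Map2k2*, *Mapk8*, *Mapk9* and *Mapk14*) the differences ranged from -2.20 percentage points for *Map2k2* to 3.28 for *Mapk14*.

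**Figure D5:**
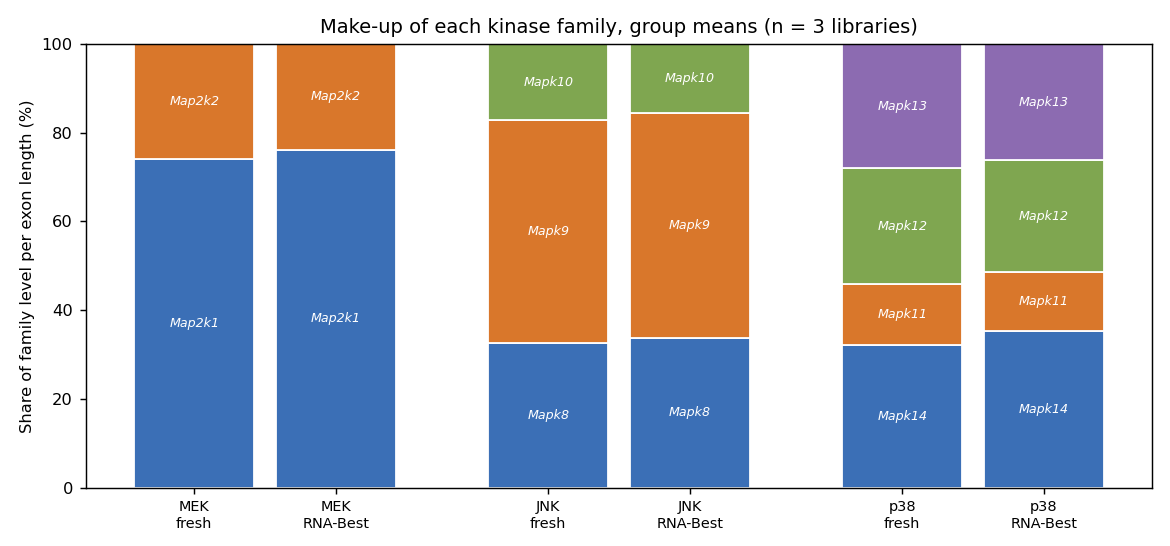
Share of each gene in the summed level of its kinase family (y axis, percent of CPM per kb of merged exons), as means of 3 libraries for fresh and RNA-Best in the MEK, JNK and p38 families. *Map2k1* is the largest part of the MEK family and *Mapk9* of the JNK family, and group means of a gene differ by less than 5 percentage points.

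The other genes of the cascades were taken from a list of 76 genes by role, of which 70 passed the filter on low counts. Of these, 32 were higher and 14 lower in RNA-Best and 24 did not pass, where 26.0% of all genes tested were higher and 24.8% lower, and the median log2 fold change was 0.12. With the length offset, 17 were higher and 18 lower, with a median of 0.03, where 17.0% of all genes tested were higher and 21.3% lower. By least squares 12 were higher and 21 lower, where the shares over all genes were 14.1% and 27.9%. For each role the counts without an offset and then with the robust length offset are given, each to be read against the shares of its own fit. Among 11 tested genes of the Ras module, which recruits Raf to the membrane, 3 were higher and 2 lower, and 1 and 2 with the length offset. *Sos1*, an exchange factor that loads Ras with GTP, had a log2 fold change of 0.43, and *Hras*, a Ras GTPase, had -0.31 (adjusted p = 8.97e-11 and 1.26e-08 from edgeR), and *Sos1* was at 0.16 with the length offset. Among 5 tested genes at the level of Raf, 4 were higher and 1 lower, and 2 and 1 with the length offset. The scaffold gene *Ksr2* had 0.53 and *Pebp1*, which encodes an inhibitor of Raf, -0.35 (adjusted p = 2.41e-07 and 1.42e-11 from edgeR). Their values with the length offset were 0.18 and -0.20.

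Of 20 tested kinases at the level that phosphorylates MEKs, 13 were higher and 2 lower, with a median of 0.27. The length offset left 8 higher and 4 lower, with a median of 0.11. The named genes were *Map3k2* at 0.48 and *Taok1* at 0.38 (adjusted p = 2.31e-11 and 3.76e-11 from edgeR). *Map3k2* was at 0.12 with the length offset, and *Taok1* was at 0.06 and did not pass. Among the 5 other MEK genes 1 was higher and 1 lower, namely *Map2k4*, whose kinase acts on JNK, at 0.12 and *Map2k3*, whose kinase acts on p38, at -0.19 (adjusted p = 0.0137 and 0.000489 from edgeR). *Map2k4* had 0.09 with the length offset and did not pass (edgeR, adjusted p = 0.0704). There too 1 was higher and 1 lower, the higher being *Map2k7* at 0.10 (edgeR, adjusted p = 0.0395), named after its value was seen. Among 9 other tested MAP kinase genes 3 were higher and 1 lower, and 2 and 2 with the length offset. *Mapk6*, the gene of ERK3, had 0.34 and *Nlk*, the gene of Nemo-like kinase, 0.25 (adjusted p = 1.78e-07 and 3.17e-06 from edgeR), and *Mapk6* was at 0.21 with the length offset.

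Of 10 tested scaffold genes 4 were higher and 4 lower, and 2 and 5 with the length offset. *Spag9*, a scaffold of JNK signalling, had 0.43 and *Iqgap1*, a scaffold of the ERK cascade, 0.31 (adjusted p = 2.83e-12 and 2.68e-11 from edgeR), and with the length offset *Spag9* was at 0.14 and *Iqgap1* turned to -0.09. Among 10 kinases downstream of MAP kinases 4 were higher and 3 lower, and 1 and 3 with the length offset. *Rps6ka3*, an ERK-activated ribosomal S6 kinase, had 0.32 and *Mapkapk2*, a substrate of p38, -0.20 (adjusted p = 1.38e-07 and 2.91e-06 from edgeR), or 0.12 and -0.13 with the length offset. Relative to these lists, the range of the 8 kinase genes, from -0.26 to 0.44, lay within that of the 70 tested genes, from -0.38 to 0.68.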

How the data were processed

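Bulk RNA-seq of 3 fresh and 3 RNA-Best libraries was analysed. The authors aligned single reads with STAR 2.5.1b to GRCm38 (mm10, GENCODE M8) and deposited estimated counts per gene from featureCounts 1.5.0-p1, without scaling to depth. In each library between 9.36% and 16.3% of values lay over 0.001 from a whole number, and the setting that divided reads is not given in the sources used here. Counts were rounded, and edgeR 4.0.16 (R 4.3.3) was run with TMM scaling (factors 0.994 to 1.01) and filterByExpr (minimum count 10). Intervals of 95% used the standard error from the quasi-likelihood F. CPM used column totals. Lengths, positions and transcript sequences came from GENCODE M21 on the same assembly, which matched 46574 genes by identifier and gave 46488 a GC content, taken from the longest transcript. Offsets were robust loess fits (span 0.5) in each library. Alternatives used limma 3.58.1 (voom), DESeq2 1.42.0, glmTreat at 1.2-fold, filters, offsets, thinning to 4909268 counts, a replicate block and single libraries left out.

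On simulated counts of the RNA-Best and fresh libraries (14742 genes tested), edgeR recovered 58% of 50 genes changed 1.2-fold and 94% of 50 changed 2-fold, with 9 false calls. Far fewer genes were changed there than the 50.8% called in the data, so the 9 false calls do not measure the error of those calls. Depth ranged from 4909418 to 47438746 counts. Members and gene lists were chosen with earlier results of these data known. Named were the 8 genes, in each pathway role at most 2 called genes of smallest adjusted p without overlap between groups, the gene nearest in profile to each member, and markers. *Mapk10* completes its family, and *Tulp4* and *Ndufb2* share sequence; these were added after values were seen. Family shares and the length offset on paralog ratios were added after seeing the data. The loess offsets were first fitted by least squares, and the robust form replaced it after those results were seen, because with the length offset the median log2 fold change over all genes was -0.05 by least squares. It was -0.02 with the robust form and -0.01 without an offset. This choice changed calls of the 8 genes, and results of both forms are given for the calls it changed. A planned ratio and some family shares are not reported here.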

Additional observations from a re-analysis of the deposited data

How the results depend on the processing

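Of the 8 genes, 7 were called, and 5 to 7 under the alternatives other than the following. The number was 1 with glmTreat, where 1693 of all genes and 10 of the 70 pathway genes passed (7479 and 46 without it), 3 with the length offset, and 3 with replicate block and length offset. The offsets were fitted by a robust loess chosen after least-squares results were seen. By least squares the number was 5 (0 higher, 5 lower) with the length offset, 6 with the GC offset and 4 with replicate block and length offset, and 6193 of all genes were called with the length offset against 5649 by the robust fit. Leaving out single libraries gave 5 to 6 of the 8, 40 to 47 of the pathway genes and 6357 to 7273 of all genes. Deviations of same-numbered libraries from their group means were nearly uncorrelated (across genes -0.00824, 0.0252 and -0.00322). The spread within groups was near sampling noise, so this does not decide whether same-numbered libraries were made together. With the replicate block 7 of the 8 genes and 7472 of all genes were called. The differences in log2 ratio with single libraries left out were -0.475 to -0.397 for *Araf* to *Braf*, 0.132 to 0.196 for *Map2k1* to *Map2k2* and -0.0160 to 0.0697 for *Mapk8* to *Mapk9*, the last also -0.0759 after thinning. With the length offset, robust and by least squares, the first was -0.208 and -0.213, the second 0.300 and 0.278 and the last -0.141 and -0.138. Reversed signs were otherwise found for 2 genes. *Araf* was -0.0407 with no filter, -0.120 with the length offset, -0.0821 with the GC offset, -0.124 with replicate block and length offset, and -0.139, -0.112 and -0.143 with these 3 offsets by least squares. With single libraries left out *Araf* ran from -0.0267 to 0.0282, below 0 without replicate 1 of either group. *Mapk8* was -0.0994 with the length offset and -0.100 with replicate block and length offset, and by least squares -0.115 and -0.116. The cause was not tested. *Braf* had the fewest counts, 246 in the shallowest library, and stayed called after thinning to equal depth, while *Map2k1* did not.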

Other observations

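For each kinase gene the gene with the nearest profile over the 6 libraries was found among all genes tested, as the smallest root mean square distance between log2 levels centred on their mean. These were *Ttbk2* for *Braf* (distance 0.00933), *Troap* for *Araf* (0.0140), *Ccdc92b* for *Map2k1* (0.00707), *Gm11518* for *Map2k2* (0.0107), *Cyhr1* for *Mapk3* (0.00667), *Eif4g1* for *Mapk8* (0.00304), *Tmem200a* for *Mapk9* (0.0111) and *Ttc13* for *Mapk14* (0.0121). The profiles have 6 points in 2 groups, and near profiles shared the group difference, as in *Braf* and *Ttbk2* with log2 fold changes of 0.44 and 0.44. The nearest genes often differed in merged exon length, as with *Map2k2* (5663 bases, nearest 411), *Mapk3* (2257, nearest 8470) and *Mapk14* (4376, nearest 10286), while *Braf* (13862, nearest 11406), *Map2k1* (3391, nearest 4002) and *Mapk9* (6784, nearest 6677) were closer to theirs.

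*Mapk10*, the JNK gene known chiefly from neurons, was tested beside *Mapk8* and *Mapk9* and had 46.0 CPM in fresh and 46.4 CPM in RNA-Best libraries, and the log2 fold change fitted with TMM scaling, which differs from that of these CPM means, was -0.02 (edgeR, adjusted p = 0.759). With the length offset it was -0.31 (edgeR, adjusted p = 3.93e-06). Its merged exons have 11130 bases, close to the 11444 of *Mapk8*, whose log2 fold change was 0.20, or -0.10 with the length offset. Of the JNK transcripts per kb it made up 17.2% ± 0.475 in fresh libraries, against 15.5% ± 0.456 (SD, n = 3 each) after RNA-Best, with no overlap between groups.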
